A study of Schizosaccharomyces pombe with 8 samples.

Results

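The proteins of the large ribosomal subunit were described through the messenger RNA levels of their genes in the fission yeast Schizosaccharomyces pombe. A gene was included when its symbol in the probe table, or its current symbol, began with rpl and a digit, was rpp0, or began with rpp1 or rpp2 and further digits. This gave 74 genes among 2899 genes named by a probe set of their own, each read from the probe set with the highest mean signal. Of 84 genes in the gene table whose symbol fits the rule, 10 had no probe set that carried their symbol alone. These were rpl2001, rpl2002, rpl301, rpl302, rpl1101, rpl1701, rpl35A02, rpl1201, rpl1202 and rpp21, the last of which is the symbol of a ribonuclease P subunit. Of the 10, 5 lay on a probe set shared by 2 large-subunit genes. All 74 measured genes entered the test, with no missing value.

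Cultures of 2 strains were measured, a strain deficient in zfs1 and a wild-type strain, with 4 cultures and 4 arrays each. By the title of the series, Zfs1 binds mRNAs and destabilises them. Both were kept at 30 °C in Edinburgh minimal medium with adenine, histidine, leucine, lysine and uracil and harvested at an absorbance of 1.0, and their total RNA was hybridised to Affymetrix arrays. The sample titles mark the zfs1-deficient strain as delta, the usual sign for a gene deletion. The sources used here do not give how the allele was made, what else the strains carry, or whether a strain was 1 clone.

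The large subunit joins amino acids and lets the growing chain out through a tunnel. Most of its proteins are needed in equal numbers and join a ribosomal RNA core in the nucleolus, with help from assembly factors, and the subunit is finished in the cytoplasm. In yeasts most of them are encoded by a pair of near-identical genes, and their mRNAs are among the most abundant in growing cells. In bulk RNA, fewer cells of a type and less RNA per cell cannot be told apart.

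The zfs1 transcript (SPBC1718.07C) had signals of 4.18, 4.33, 4.55 and 3.51 on the log2 scale in the zfs1-deficient cultures, against 10.48, 10.54, 10.39 and 10.62 in the wild-type cultures, so every array matched its label. The number of arrays limits the precision of what follows. Array medians lay between 9.61 and 9.64. All signals given are log2 signals, and all differences are log2 differences, zfs1-deficient minus wild type.

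Signals of the 74 genes lay close together near the top of the range. Means over the 8 arrays ran from 10.88 for rpl1603 to 13.19 for rpl4102, with a median of 12.65, and 70 of the 74 lay between 12 and 13. Of the 74, 68 were among the brightest 5% of probe sets and 41 among the brightest 2%. A signal depends on the probes as well as on the RNA, so the order of these signals is not an order of transcript abundance. The table carries no mark for saturated probes, and whether probe sets this bright still respond fully to their RNA was not tested.

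rpl4102 (SPAC3F10.18C), which encodes the tiny bridge protein eL41, was the brightest probe set of all on each of the 8 arrays. Its signals were 13.23, 13.20, 13.24 and 13.22 in zfs1-deficient cultures, against 13.14, 13.23, 13.19 and 13.10 in wild-type cultures. The groups overlap, since wild-type replicate 2 lay among the deficient cultures. rpl35 (SPCC613.05C) and rpl31 (SPAC890.08), both at the rim of the exit tunnel, followed at 13.02 and 12.95 over the 8 arrays. At the other end stood rpl1603 (SPBC2G2.05) at 10.88, the third copy of a gene for uL13, then rpl102 (SPBC30D10.18C) at 11.83 and rpl803 (SPBC839.04) at 12.04. The other 2 copies of the uL13 gene, rpl1601 and rpl1602, had signals of 12.81 and 12.81.

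The genes also varied little from culture to culture. The pooled SD within strains had a median of 0.063 over the 74 genes, against 0.19 over all 4969 tested probe sets, and ran from 0.025 to 0.20. rpl101 had the smallest spread, and rpl1603, rpl15 and rpl3002 the largest. This low spread was not particular to the large subunit. The median was 0.056 over 45 small-subunit genes and 0.061 over 5 elongation factor genes, whose median signals were 12.61 and 12.59.

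No large-subunit gene passed the test for a difference between the strains. In limma, 0 of the 74 had a Benjamini-Hochberg adjusted p under 0.05, where 5.78% of all tested probe sets did, and the smallest adjusted p was 0.158. At an unadjusted p under 0.05, 3 genes were higher in the zfs1-deficient strain and 0 lower among the large-subunit genes, where 10.1% of all tested probe sets were higher, 10.5% lower and 20.6% either. Differences ran from -0.086 to 0.21, with a median of 0.043 and a median SE of 0.047, and 71 of the 74 were under 0.1 in size.

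The signs of the differences leaned to the positive side on the deposited scale, but not under quantile normalization. As deposited, 64 of the 74 differences were positive (86.5%), against 47.4% of all tested probe sets, and the median of all was -0.013. Under quantile normalization 32 were positive and 42 negative, and the median was -0.0039. That method gives equal ranks the same value on every array, and most of these genes hold the top ranks; whether this accounts for the change was not tested. The other 15 settings gave medians from 0.025 to 0.054. Among them was centring of the array medians, with 64 positive and a median of 0.051. The rest of the 15 kept the deposited scaling of the arrays, so they could not show whether the signs depend on it. Arrays did not overlap between strains for 5 genes, all higher in the deficient strain (6.76%, against 7.83% of all tested probe sets). 0 were lower throughout, against 7.71% of all tested probe sets, and under quantile normalization 0 genes did not overlap. In the 4 numbered pairs of cultures, 24 genes were higher in the deficient culture each time (32.4%), against 20.5% of all tested probe sets, and 1 gene under quantile normalization.

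The median signal over the 74 genes on each array was 12.65, 12.68, 12.65 and 12.69 in zfs1-deficient cultures, against 12.60, 12.63, 12.66 and 12.62 in wild-type cultures. Wild-type replicate 3 lay above 2 of the deficient cultures, so the strains overlap.

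**Figure D1:**
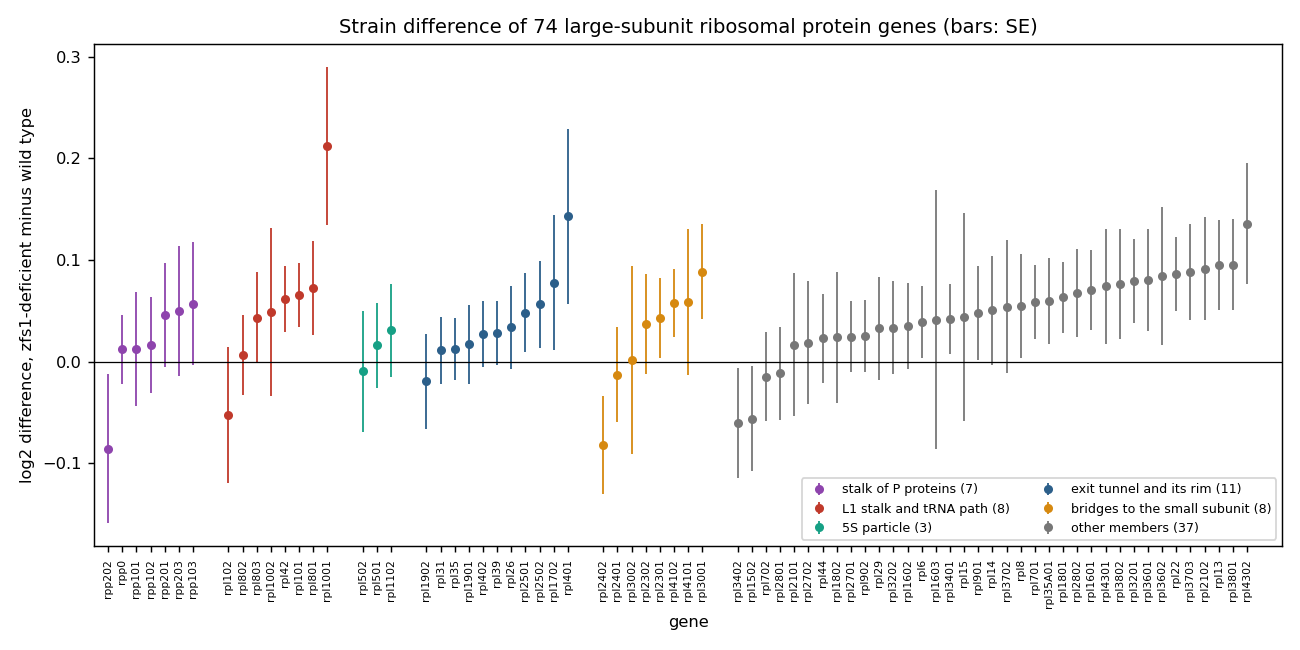
Log2 strain difference (zfs1-deficient minus wild type) of each of the 74 large-subunit genes, with its SE, grouped by the place of the protein in the subunit. Most points lie between 0 and 0.1, rpl1001 stands highest at 0.21, and 10 genes lie below 0, or 42 under quantile normalization.

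By place in the subunit, the largest single difference was among genes of proteins that touch transfer RNA. The uL1 stalk guides spent transfer RNA out, uL16 lies beside the transfer RNA, uL2 near the catalytic site, and eL42 at the exit site. The 8 measured genes of these proteins had a median of 0.056 and a range from -0.053 to 0.21, and 7 were positive.

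rpl1001 (SPBC18E5.04) encodes uL16, known in budding yeast to join the subunit late, in the cytoplasm. Its signals were 12.72, 12.85, 12.68 and 12.72 in zfs1-deficient cultures, against 12.62, 12.55, 12.66 and 12.30 in wild-type cultures. All 4 deficient arrays lay above all wild-type arrays, though not under quantile normalization, and wild-type replicate 4 was the lowest by a wide margin. The difference was 0.21 ± 0.08 (SE, n = 4 per strain), or 1.16-fold (limma, adjusted p = 0.158). In a limma fit blocked on replicate number it was the 1 large-subunit gene that rose (adjusted p = 0.0436) and 0 fell, where 11.3% of all tested probe sets rose, 12.8% fell and 24.2% did either. Without wild-type replicate 4 the limma difference was 0.13 (adjusted p = 0.159), and without both replicate 4 cultures 0.14 (adjusted p = 0.115). Its copy rpl1002 (SPAP7G5.05) differed by 0.049 ± 0.083 (SE).

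rpl101 (SPCC1183.08C) and its copy rpl102 encode uL1. rpl101 had 12.84, 12.84, 12.86 and 12.85 in zfs1-deficient cultures, against 12.76, 12.80, 12.82 and 12.75 in wild-type cultures, and the groups did not overlap. The difference was 0.066 ± 0.032 (SE; limma, adjusted p = 0.278). rpl102 had 11.81, 11.73, 11.85 and 11.83 in zfs1-deficient cultures, against 11.95, 11.69, 11.90 and 11.88 in wild-type cultures, which overlap. rpl42 (SPAC15E1.03, eL42) did not overlap either, with means of 12.78 ± 0.025 in zfs1-deficient and 12.72 ± 0.027 in wild-type cultures (SD, n = 4 each; limma, adjusted p = 0.320). rpl803, a uL2 gene, differed by 0.0435 ± 0.0445 (SE).

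**Figure D2:**
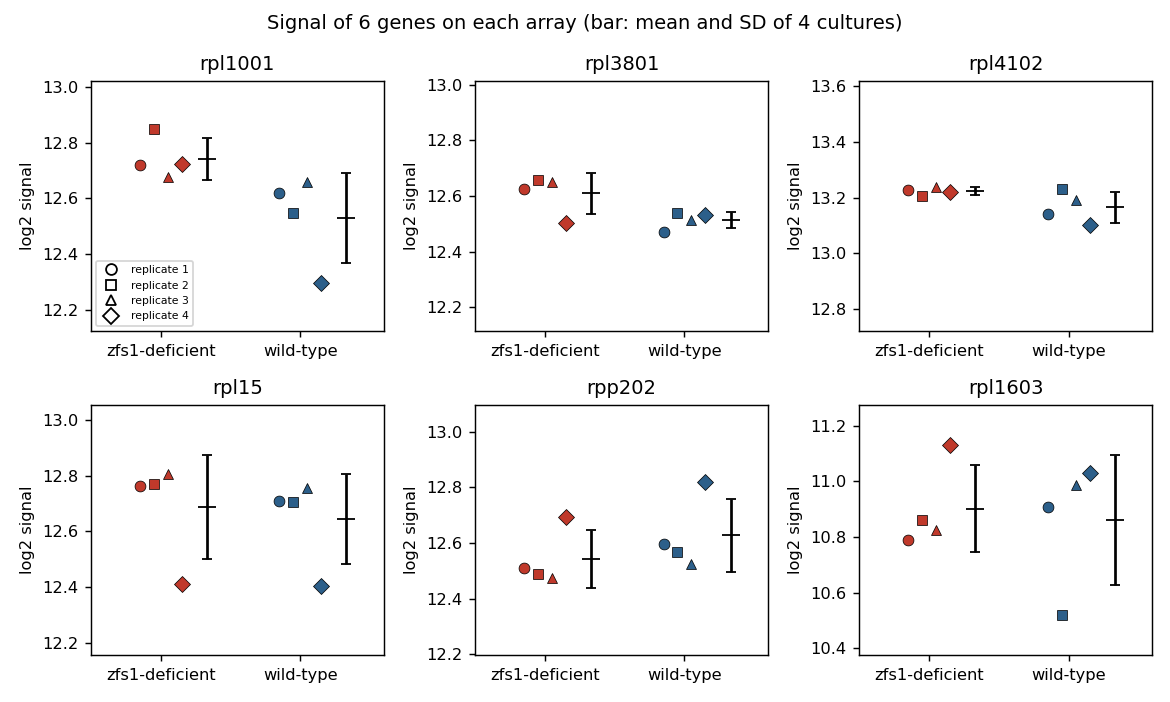
Log2 signal of 6 large-subunit genes on each array, with zfs1-deficient cultures on the left, a symbol for each replicate number and the mean and SD of 4 cultures beside them; every panel spans 0.9 log2 units. The rpl1001 groups do not overlap on the deposited scale, whereas in rpl15 and rpp202 the replicate 4 culture stands apart in both strains. In rpl1603 it is the highest of each strain, but the wild-type culture that stands apart is replicate 2, at 10.52.

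The stalk of P proteins, which recruits the elongation factors, had 7 measured genes. Their median difference was 0.016, and 6 of the 7 were positive, where 86.5% of all 74 were. rpp0 (SPCC18.14C), the base of the stalk, had means of 12.82 ± 0.018 in zfs1-deficient and 12.81 ± 0.045 in wild-type cultures (SD, n = 4 each). The P2 gene rpp202 (SPBC23G7.15C) had the most negative difference of all 74, -0.086 ± 0.073 (SE; limma, adjusted p = 0.565, or 0.0641 in the blocked fit). It was -0.14 when zfs1-deficient replicate 4 was left out and -0.022 when wild-type replicate 4 was. Its signals were 12.51, 12.49, 12.48 and 12.70 in zfs1-deficient cultures, against 12.60, 12.57, 12.52 and 12.82 in wild-type cultures. The deficient culture was the lower in every numbered pair, though the groups overlap. The other P2 genes rpp201 (SPBP8B7.06) and rpp203 (SPAC1071.08) differed by 0.046 ± 0.051 and 0.050 ± 0.064 (SE).

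The proteins that line the exit tunnel or surround its mouth had 11 measured genes, with a median of 0.028. rpl401 (SPBC1711.06), for the tunnel protein uL4, had the second largest difference of the 74, 0.14 ± 0.09 (SE; limma, adjusted p = 0.390), and was named after its values were seen. Its signals were 12.63, 12.65, 12.63 and 12.51 in zfs1-deficient cultures, against 12.58, 12.56, 12.53 and 12.18 in wild-type cultures. As in rpl1001, the low value was that of wild-type replicate 4, and here zfs1-deficient replicate 4 lay within the wild-type range. The genes of the brightest rim proteins, rpl35 and rpl31, differed by 0.0125 and 0.0115.

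Among proteins that bridge to the small subunit, 8 genes had a median of 0.040. rpl3001 (SPAC9G1.03C, eL30) differed by 0.089 ± 0.047 (SE; limma, adjusted p = 0.321), and its copy rpl3002 (SPAC1250.05) by 0.0017 ± 0.093 (SE). rpl4102, the brightest, differed by 0.058 ± 0.033 (SE; limma, adjusted p = 0.365). The 3 genes of the proteins that bind the smallest ribosomal RNA of the subunit, rpl501, rpl502 and rpl1102, lay between -0.0095 and 0.031.

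Of the 37 genes for other proteins of the subunit, 33 differences were positive and the median was 0.051. rpl22 (SPAC11E3.15), for the RNA-binding protein eL22, had means of 12.66 ± 0.03 in zfs1-deficient and 12.58 ± 0.04 in wild-type cultures (SD, n = 4 each). These groups did not overlap, and the difference of 0.086 ± 0.037 (SE) had an adjusted p of 0.223 in limma. rpl4302 (SPBC83.02C), for the zinc-binding protein eL43, differed by 0.14 ± 0.06 (SE; limma, adjusted p = 0.236). Also among the 10 genes with the smallest p were rpl13, rpl3801, rpl3201 and rpl3703, with differences from 0.080 to 0.096.

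rpl3801 (SPBC577.02), for the small protein eL38, had 12.63, 12.66, 12.65 and 12.50 in zfs1-deficient cultures, against 12.47, 12.54, 12.51 and 12.53 in wild-type cultures. The deficient replicate 4 was the 1 deficient culture inside the wild-type range. The difference was 0.096 ± 0.045 (SE; limma, adjusted p = 0.264). It was 0.14 without both replicate 4 cultures (adjusted p = 0.0314) and 0.14 with array weights (adjusted p = 0.00622). In the fit without both replicate 4 cultures 1 large-subunit gene rose and 1 fell, where 6.69% of all tested probe sets rose, 5.58% fell and 12.3% did either. The 1 that fell there was rpl2402 (SPCC330.14C, eL24, named after its values were seen). It had 12.62, 12.62, 12.64 and 12.75 in zfs1-deficient cultures, against 12.79, 12.77, 12.76 and 12.64 in wild-type cultures. Its replicate 4 values are in the opposite order to the rest, and the difference was -0.082 over all arrays and -0.15 without that pair (limma, adjusted p = 0.379 and 0.0152). With array weights, which gave both replicate 4 arrays the lowest weight of their strain, 2 large-subunit genes rose, rpl3801 and rpl2102, and rpl2402 fell, where 13.0% of all tested probe sets rose, 12.6% fell and 25.7% did either.

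Cultures of the same strain differed in these genes, and the wild-type ones more one-sidedly. zfs1-deficient replicate 4 had 39 of the 74 genes below its strain mean (52.7%, against 51.9% of all probe sets) and a median deviation of -0.014, and zfs1-deficient replicate 1 had 41 below. Wild-type replicate 4 had 54 below (73.0%, against 51.1% of all probe sets), with a median of -0.064. Wild-type replicate 3 was further to the other side, with 62 above and 12 below (16.2%, against 44.8% of all probe sets) and a median of 0.049. Set against replicates 1 to 3 of the same strain, 35 genes were lower in both replicate 4 cultures and 16 higher in both. These are 47.3% and 21.6% of the large-subunit genes, against 41.0% and 38.0% of all tested probe sets. The deviations of the 2 replicate 4 cultures from their strain means correlated at 0.65 across the 74 genes, against 0.26 to 0.27 for numbers 1 to 3. These are correlations across genes that share their arrays, given as a description.

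The genes at the ends of this pattern were alike in both strains and were picked after their values were seen, apart from those the naming rule gave. rpl15 (SPCC576.11), for eL15 in the core of the subunit, had 12.76, 12.77, 12.81 and 12.41 in zfs1-deficient cultures, against 12.71, 12.71, 12.76 and 12.40 in wild-type cultures. Replicate 4 was the low culture in each strain, by more than the whole spread of the other 3. rpl3002 was also low in both, with 11.93 in zfs1-deficient and 11.96 in wild-type replicate 4. rpl1603 was highest in replicate 4 of each strain, with 11.13 in the zfs1-deficient and 11.03 in the wild-type culture, though wild-type replicate 3 lay close, at 10.99. rpl4101 (SPAC3G6.13C), the second eL41 gene, had 12.86 in zfs1-deficient replicate 4, against 12.59 to 12.63 in the other deficient cultures, and 12.78 in wild-type replicate 4, against 12.55 to 12.59 in the other wild-type cultures. rpp202, rpp201, rpp102 and rpp101 were likewise highest in replicate 4 of each strain. The other stalk genes went the other way in part. rpp103 was lowest in replicate 4 of each strain, at 12.23 in the zfs1-deficient and 12.20 in the wild-type culture. In replicate 4, rpp203 was the lowest of its strain in the wild type alone, and rpp0 in the zfs1-deficient strain alone. The 74 genes thus included both high and low ones in the same culture.

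**Figure D3:**
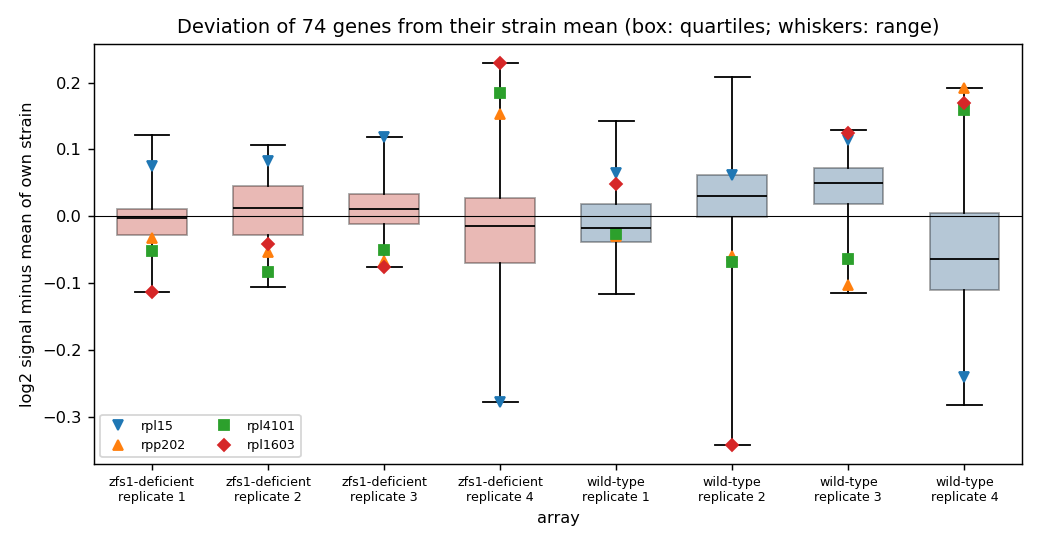
Deviation of the 74 genes from their own strain's mean log2 signal on each array, with zfs1-deficient arrays on the left; boxes give quartiles, whiskers the range, and coloured symbols follow 4 genes. The replicate 4 arrays have the widest boxes, with rpl15 low and rpl4101, rpp202 and rpl1603 high in both strains.

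Gene copies of the same protein were set against each other within each array. This cancels a shift that is equal for all probe sets of an array, but not one that depends on the signal. There were 27 families with at least 2 measured copies, 23 of them pairs and 4 trios, holding 58 of the 74 genes and giving 35 pairs. rpl8 was kept apart from rpl801, rpl802 and rpl803, since it encodes a different protein. The strain differences of the copies had the same sign in 26 of the 35 pairs. Since 64 of all 74 differences were positive, most pairs of these genes share a sign whether or not they are copies. Under quantile normalization 32 of the 74 were positive. A share for pairs that are not copies is not given here. Within a family the differences spread by a median of 0.046, and by at most 0.16, between rpl1001 and rpl1002.

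The ratio of 2 copies did not overlap between the strains in 2 of the 35 pairs, where 15.5% of all tested probe sets did not overlap as single values. A ratio is a different measure from a single value, and no share for ratios of other genes is given here. The log2 ratio of rpp201 to rpp202 was 0.10, 0.10, 0.14 and 0.037 in zfs1-deficient cultures, against -0.071, 0.033, 0.010 and -0.12 in wild-type cultures. Its difference was 0.13 ± 0.04 (SE; exact permutation test over 70 splits, 2-sided, p = 0.0286, the smallest the design allows, unadjusted for 35 pairs). The splits left out the pairing of cultures by replicate number. The ratio of rpl2801 (SPBC776.11) to rpl2802 (SPCC5E4.07), named after their values were seen, differed by -0.079 ± 0.034 (SE, exact permutation p = 0.0286). Every ratio that does not overlap between 4 and 4 arrays gives this p, so it adds nothing to the count of 2 pairs. The ratio of rpl1001 to rpl1002 had means of 0.26 ± 0.04 in zfs1-deficient and 0.098 ± 0.14 in wild-type cultures (SD, n = 4 each, exact permutation p = 0.0571). That of rpl101 to rpl102 had means of 1.04 ± 0.05 in zfs1-deficient and 0.93 ± 0.13 in wild-type cultures (SD, n = 4 each, exact permutation p = 0.114). Under quantile normalization 1 pair did not overlap, that of rpl1001 and rpl1002.

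Copies can share sequence under their probes, so a probe set may also read RNA of the other copy. There were 4 probe sets listed for 2 large-subunit genes at once, which are not counted among the 74. Their differences lay between 0.023 and 0.11, and the smallest adjusted p among them was 0.177 in limma. Of the 4, 1 passed in the blocked fit, where 24.2% of all tested probe sets did.

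**Figure D4:**
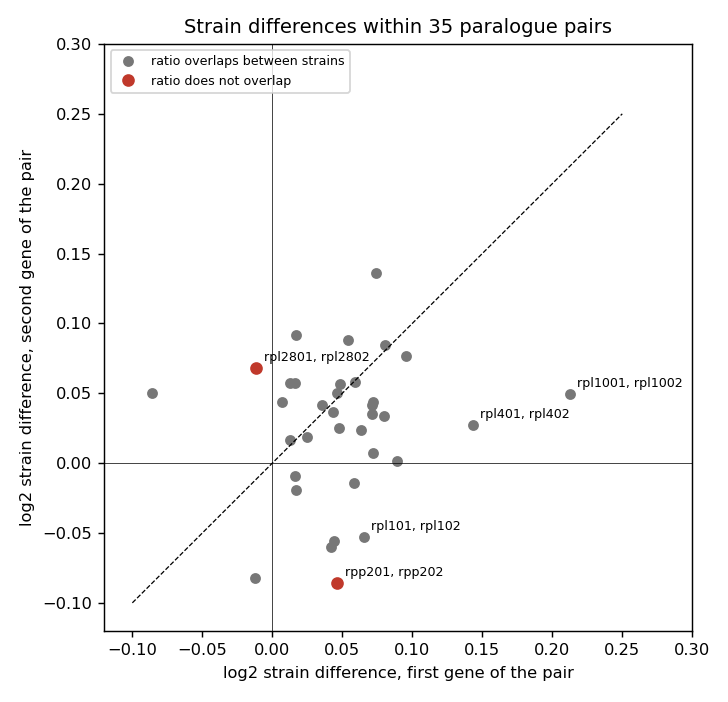
Log2 strain difference (zfs1-deficient minus wild type) of the first gene against that of the second gene in 35 pairs of copies; the dashed line marks equal differences. Red points are the 2 pairs whose ratio does not overlap between strains, the pair of rpl1001 and rpl1002 lies farthest to the right, and 1 pair did not overlap under quantile normalization.

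Genes of the same pathway outside the large subunit are given next by their counts. The lists were measured in part, with 28 of 63 assembly and export factors and 5 of 11 elongation factors. Of 45 measured small-subunit protein genes 0 passed in limma. At an unadjusted p under 0.05, 7 of them were higher and 0 lower, where 10.1% of all tested probe sets were higher and 10.5% lower. In the blocked fit 2 of the 45 rose, where 11.3% of all tested probe sets did. Their median was 0.064, with 44 positive, or 0.014 under quantile normalization, with 30 positive. Of 5 elongation factor genes 0 passed, and 0 had an unadjusted p under 0.05. Their median was 0.019, but its sign was not stable: it was 0.067 when zfs1-deficient replicate 4 was left out, -0.0070 when wild-type replicate 4 was, and -0.025 under quantile normalization.

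Of 28 measured genes for factors that assemble and export the large subunit, 2 fell and 0 rose in limma and 25 differences were negative, with a median of -0.22 (-0.21 under quantile normalization), where 2.21% of all tested probe sets fell. In the blocked fit 13 of the 28 fell, where 12.8% of all tested probe sets did. drs1 (SPCC1223.07C), an RNA helicase of large-subunit assembly, had 11.90, 11.95, 11.91 and 11.75 in zfs1-deficient cultures, against 12.09, 12.22, 12.16 and 12.30 in wild-type cultures, and fell by 0.32 (limma, adjusted p = 0.0234). arx1 (SPBC23E6.05), an export factor of the subunit, fell by 0.30 (limma, adjusted p = 0.0426). The highest adjusted p with 1 array left out was 0.0709 for drs1 and 0.129 for arx1.

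Of 16 genes of RNA polymerase I and its factors 1 fell, rpc40 (SPBC1289.07C), a subunit shared with RNA polymerase III, by 0.27 (limma, adjusted p = 0.0472; up to 0.151 with 1 array left out), where 2.21% of all tested probe sets fell. The median was -0.15, and 6 fell with the block, where 12.8% of all tested probe sets did. Of 18 factors of small-subunit processing 0 passed in limma and 3 fell with the block, a share near that same 12.8%. By unadjusted p, 0 of the 18 were higher and 1 lower at the 0.05 level, where 10.1% and 10.5% of all tested probe sets were. Their median was -0.080, or -0.034 when zfs1-deficient replicate 2 was left out and -0.16 when wild-type replicate 4 was. The negative differences of these lists and the differences of the 74 protein genes were not tested against each other. Of 24 genes of TOR signalling and of regulators of ribosomal protein genes 1 rose, gad8 (SPCC24B10.07), a kinase acting downstream of a TOR complex, by 0.55 ± 0.10 (SE; limma, adjusted p = 0.0122; up to 0.0520 with 1 array left out), where 3.56% of all tested probe sets rose.

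**Figure D5:**
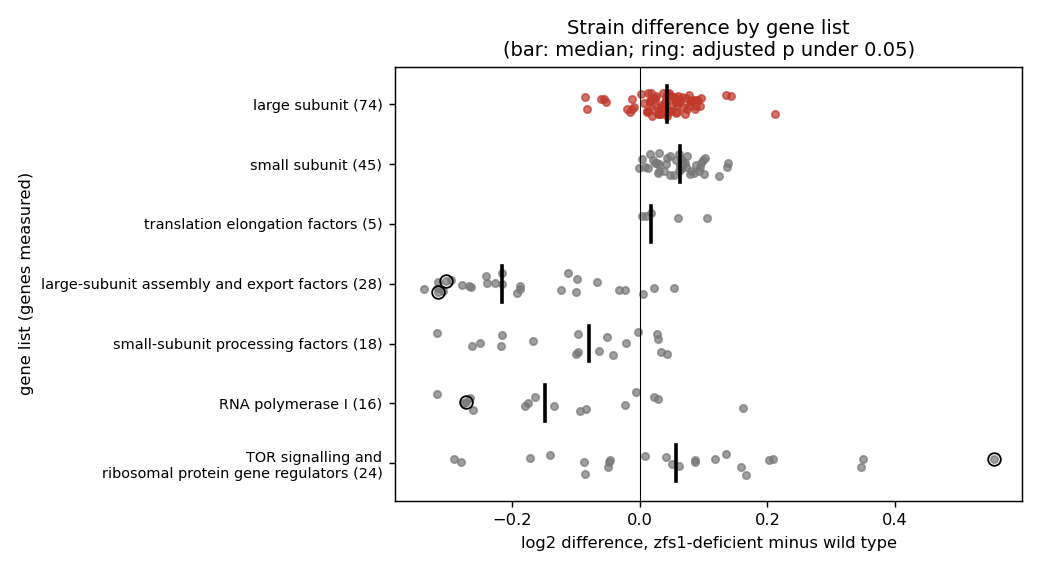
Log2 strain difference (zfs1-deficient minus wild type) of every measured gene in 7 lists; black bars are medians and rings mark genes with an adjusted p under 0.05. The 74 large-subunit genes lie in a narrow band around 0.043 (-0.0039 under quantile normalization), and the assembly and export factors spread from -0.34 to 0.054.

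Stress genes and markers of mating and sporulating cells were measured in the same cultures. Of 23 core stress genes 9 rose in limma and 0 fell, where 3.56% of all tested probe sets rose and 2.21% fell. Of the 23 differences 16 were positive and 7 negative, from -0.57 to 3.22 with a median of 0.41. Without wild-type replicate 1, 5 of the genes rose. Among the 9 were ish1 by 1.55, lsd90 by 3.22, gpx1 by 0.85 and gpd1 by 0.46 (limma, adjusted p from 0.00147 to 0.0032). The log2 of the summed signal of the 23 ran from 15.44 to 15.87 in zfs1-deficient cultures, against 14.90 to 15.20 in wild-type cultures. Of 17 mating and sporulation markers 2 rose, spo6 and isp3 (limma, adjusted p = 0.0185 and 0.0498), where 3.56% of all tested probe sets rose. Of the 17 differences 10 were positive and 7 negative, from -0.50 to 2.46 with a median of 0.035. These markers were dim, with a median signal of 6.51, against 9.62 over all tested probe sets. The mean signals of spo6 and isp3 were 6.82 and 4.00, and 0 markers rose when the dimmest probe sets were left out. The log2 of the summed signal of the 17 ran from 11.95 to 12.08 in zfs1-deficient cultures, against 11.78 to 12.05 in wild-type cultures. Of those markers 1, rec8, lay at or below the brightest control probe set on all arrays. The part of either in the differences of the large-subunit genes was not tested.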

How the data were processed

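Per the labels' protocols, total RNA was amplified into biotin-labelled RNA, hybridised to Affymetrix arrays and read with the GeneChip Operating Software. The deposited values are log10 signals per probe set; the base was inferred from array medians of 2.89 to 2.90 and maxima of 3.94 to 3.99, and the sources used here do not give the authors' scaling. The labels name a nematode array, whereas the probe table pairs the probe sets with fission yeast genes.

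Values were turned into log2 and otherwise used as deposited. The 17 control probe sets were left out, and 4969 of 4994 probe sets with at least 2 values per strain were tested; the 74 genes had no missing value. All 74 were found by gene identifier in a gene table of assembly ASM294v3. The strain effect was fitted with limma (version 3.58.1, R 4.3.3; 2-sided, with a variance trend), and p-values were adjusted by Benjamini and Hochberg's method over every tested probe set. The fit was first tested on simulated data. Figures were drawn with matplotlib 3.10.9. Alternatives were the replicate number as a block, array weights, median centring, quantile normalization, no variance trend, omission of the dimmest 25%, of replicate 4, of each array, of probe sets marked as shared, and the mean of a gene's probe sets. Replicates are separate cultures per the series' design.

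Arrays with the same number in both strains deviated together from the mean of their strain. Their correlations across probe sets were 0.37, 0.33, 0.26 and 0.70 for numbers 1 to 4, all over 0.1. The numbers, which come from the sample titles, were therefore taken to pair the cultures in the blocked fit and in counts over numbered pairs. The main fit and the exact permutation tests of ratios treated the cultures as unpaired. Unlike numbers could correlate as highly: zfs1-deficient 3 with wild-type 1 gave 0.41 and zfs1-deficient 1 with wild-type 3 gave 0.25, so numbers 1 and 3 are not set apart by this check. Members and lists were chosen with earlier results of these data known. Named genes were zfs1, the 10 members with the smallest p, the 3 brightest, dimmest and most variable, the 3 families with the widest spread of differences, and up to 4 called genes per other list; protein places were grouped by hand after the data were seen. Promoter motifs and protein identity were not analysed here.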

Additional observations from a re-analysis of the deposited data

Results flagged for a closer look

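Over 48 groups of 4 cultures (23 named genes and the median large-subunit signal, in each strain), 5 had a culture far from the other 3 by Dixon's criterion for 4 values. For a single group chosen beforehand, chance gives about 1 in 20. These genes were chosen partly for their spread in the same values and share their arrays, so that rate cannot judge the count of 5. rpl15 was far low in replicate 4 of both strains, at 12.41 in the zfs1-deficient culture, against 12.76 to 12.81 in the other deficient cultures, and at 12.40 in the wild-type culture, against 12.71 to 12.76 in the other wild-type cultures. rpp202 was far high in zfs1-deficient replicate 4, at 12.70, against 12.48 to 12.51 in the others. rpp203 was far low in zfs1-deficient replicate 2, at 12.19, against 12.33 to 12.34 in the others. rpl803 was far low in wild-type replicate 1, at 11.96, against 12.03 to 12.04 in the others. The cause of these values was not tested.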

How the results depend on the processing

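The count of 0 large-subunit genes higher became 1 with the replicate block, 2 with array weights and 1 without both replicate 4 cultures, and the count of 0 lower became 1 with array weights and 1 without both replicate 4 cultures; no setting that left out 1 array changed either. Their median difference turned to -0.0039 under quantile normalization. Over all tested probe sets, 3.56% were called higher and 2.21% lower in the main fit, or 177 and 110. Shares were 11.3% and 12.8% with the block, 13.0% and 12.6% with array weights, and 6.69% and 5.58% without both replicate 4 cultures. Counts were 172 and 116 under quantile normalization, 176 and 110 without a variance trend, and 143 and 82 without the dimmest 25%. With 1 array left out they ran from 75 to 184 higher and from 28 to 125 lower. For small-subunit genes the count higher was 2 with the block and 7 with array weights, and the median 0.014 under quantile normalization. Assembly and export factors lower were 13 with the block, 7 with array weights, 1 without a variance trend and 0 to 2 with 1 array left out. Small-subunit processing factors lower were 3 with the block and 1 with array weights. RNA polymerase I genes lower were 6 with the block, 6 with array weights, 0 under quantile normalization, 0 without a variance trend, 0 without the dimmest 25%, 3 without both replicate 4 cultures and 0 to 2 with 1 array left out. TOR and regulator genes higher were 3 with array weights, 2 without both replicate 4 cultures and 0 to 2 with 1 array left out; genes lower were 2 with the block, 1 with array weights and 1 without both replicate 4 cultures. Stress genes higher were 14 with the block and 5 to 9 with 1 array left out, the 5 without wild-type replicate 1. Mating and sporulation markers higher were 0 without the dimmest 25% and 0 to 2 with 1 array left out, and 1 was lower with the block. Paralogue pairs whose ratio did not overlap were 1 under quantile normalization, 9 without both replicate 4 cultures and 3 to 5 with 1 array left out, where fewer arrays make it easier not to overlap. No exact paired test of the ratios with 4 pairs could reach 0.05, so none was run with the block. The cause of these changes was not tested.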
